A study of Mus musculus with 16 samples.

Results

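The genes described here are 49 genes of nucleolar ribosome biogenesis, chosen by symbol and followed in 4 subpopulations of cMyc+ germinal center (GC) B cells. Ribosomes are built in the nucleolus, where RNA polymerase I transcribes a long precursor rRNA, small nucleolar ribonucleoproteins (snoRNPs) modify it, and large assembly complexes cut it and fold it with ribosomal proteins into the small and large subunits. In lymphocytes this work increases when a cell prepares to grow and divide, and many of its genes are classical targets of the transcription factor MYC, which GC B cells switch on when they are positively selected in the light zone. All 49 symbols were found, each on 1 row, among the 51912 gene rows of the expression table, and all 49 passed the filter of a mean normalized count of at least 10 that left 12505 genes for testing. The lowest value of any of them in any library was a normalized count of 51.7, so none was near the counting floor.

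The libraries were made from splenic B cells of cMyc gfp/gfp mice, in which the Myc gene itself is tagged with GFP, so that every group carried the reporter and no cMyc-negative group was analysed here. Mice of either sex, 6 to 15 weeks old, were given sheep red blood cells (SRBC) by intraperitoneal injection and their spleens were taken on day 7. After CD43+ cells had been depleted, cells that were B220+ CD38low CD95+ cMycGFP+ were sorted as cMyc+prePB (CD69hi), cMyc+early (CD23hi CD21/35hi), cMyc+lateCD23int (CD23int CD21/35int) or cMyc+lateCD23lo (CD23lo CD21/35lo). RNA-seq libraries were made with a low-input kit, 4 for each subpopulation, numbered 1 to 4 in the labels, which do not say what a number stands for or whether mice were pooled. The p-values below therefore measure the spread between these libraries. In such bulk libraries, more cells with a high level and more RNA per cell cannot be told apart.

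Between 19812080 and 25795815 reads were recovered from the normalized counts of 15 libraries, and 14650 to 15573 genes were above 0 in the 16. The sort on CD23 was visible in the mRNA of Fcer2a, which encodes it (limma adjusted p over the 4 groups = 0.013). Its normalized count was 13398 ± 4314 in cMyc+early and 2274 ± 1172 in cMyc+lateCD23lo (SD, n = 4). Cr2, which encodes CD21/35, also passed (adjusted p = 0.0219), but its mean did not separate the CD21/35hi from the CD21/35int gate. Cr2 was 6638 ± 1826 in cMyc+early, beside 6928 ± 1497 for cMyc+lateCD23int and 4738 ± 2939 for cMyc+lateCD23lo. It was lowest, at 1860 ± 811, in cMyc+prePB, which was gated on CD69. Cd69 did not pass the test (adjusted p = 0.687). Its highest mean was 3762 ± 1766 for cMyc+lateCD23int, beside 3453 ± 1297 for cMyc+prePB and 3160 ± 1243 for cMyc+early. The summed level of 7 GC B cell markers was 29324 to 60134 and that of 5 markers of naive follicular B cells 576 to 5080, while 6 plasma cell markers summed to 23488 to 111293. T cell markers summed to at most 156, stromal markers to at most 78.6 and myeloid markers to at most 1173 normalized counts, with S100a9, Col1a2 and Pdgfrb at 0 throughout, and erythroid markers summed to 165 to 4954.

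MYC with its partner MAX binds the E-box CACGTG, and the promoter windows of the members were searched for this motif, which reads the same on both strands. RefSeq windows from 250 bases before to 50 bases after the transcription start (build GRCm38.p6) were given for 44 of the 49 genes, and 11 of the 44 (25%) held CACGTG. The share was 12.3% of the 8618 tested genes with a window and 8.1% of all 27025 genes with one. In 9 of the 11 members the match lay after the start, between positions +3 and +41 with the first transcribed base as +1, whereas 14.7% of the 1280 matches in tested genes lay there. The windows are shown from 130 bases before to 30 bases after the start, 5′ to 3′ on the strand of the gene, for the 6 members whose match falls in that stretch, so that its place beside the start can be seen. Capitals mark CACGTG.
Nle1 (chr11:82908366-82908525, minus strand, match at +24): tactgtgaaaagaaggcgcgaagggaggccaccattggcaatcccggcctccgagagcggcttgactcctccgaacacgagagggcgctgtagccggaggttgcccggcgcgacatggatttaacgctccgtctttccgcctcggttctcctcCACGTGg
Tsr1 (chr11:74897950-74898109, plus strand, match at +25): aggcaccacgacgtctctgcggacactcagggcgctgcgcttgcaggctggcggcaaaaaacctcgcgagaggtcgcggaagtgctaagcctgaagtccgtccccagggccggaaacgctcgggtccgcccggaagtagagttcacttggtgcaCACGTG
Imp4 (chr1:34439699-34439858, plus strand, match at -121): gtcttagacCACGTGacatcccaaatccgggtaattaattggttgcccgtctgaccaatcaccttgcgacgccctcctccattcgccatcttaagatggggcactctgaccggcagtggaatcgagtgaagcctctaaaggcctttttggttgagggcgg
Nop2 (chr6:125131753-125131912, plus strand, match at -60): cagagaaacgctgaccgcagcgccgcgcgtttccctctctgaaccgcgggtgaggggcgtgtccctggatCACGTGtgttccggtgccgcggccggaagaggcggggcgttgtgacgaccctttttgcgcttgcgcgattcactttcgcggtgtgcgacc
Pes1 (chr11:3963845-3964004, plus strand, match at +3): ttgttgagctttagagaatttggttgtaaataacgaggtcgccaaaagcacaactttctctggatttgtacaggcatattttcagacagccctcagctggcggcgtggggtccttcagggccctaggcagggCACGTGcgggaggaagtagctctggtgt
Wdr43 (chr17:71616085-71616244, plus strand, match at +18): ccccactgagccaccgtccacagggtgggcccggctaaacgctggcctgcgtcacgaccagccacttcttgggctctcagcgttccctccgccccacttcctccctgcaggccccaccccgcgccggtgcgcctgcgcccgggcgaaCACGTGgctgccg
Grwd1, Ltv1, Mybbp1a, Pno1 and Utp20 held the match further after the start, beyond the stretch shown. A match of these letters is a description of the window and not a measured binding site.

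Across the 4 subpopulations, transcripts of these genes were most abundant in cMyc+prePB cells. The highest group mean was in cMyc+prePB for 46 of the 49 genes, in cMyc+lateCD23lo for 2 and in cMyc+early for 1, whereas among all tested genes cMyc+prePB held the highest mean for 29%. The lowest mean was in cMyc+lateCD23lo for 25 genes, in cMyc+lateCD23int for 19 and in cMyc+early for 5. Together the 49 genes took 1.33% ± 0.148 of all normalized counts in cMyc+prePB libraries and 1.1% ± 0.147 in those of cMyc+early (SD, n = 4). The share was 0.989% ± 0.127 for cMyc+lateCD23int and 0.974% ± 0.175 for cMyc+lateCD23lo. In no single gene did the differences pass the test after adjustment over all genes, with subpopulation means alone in the model. With the means of the library numbers added, 4 of the 49 genes passed the F test, against 1.38% of all genes.

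**Figure D1:**
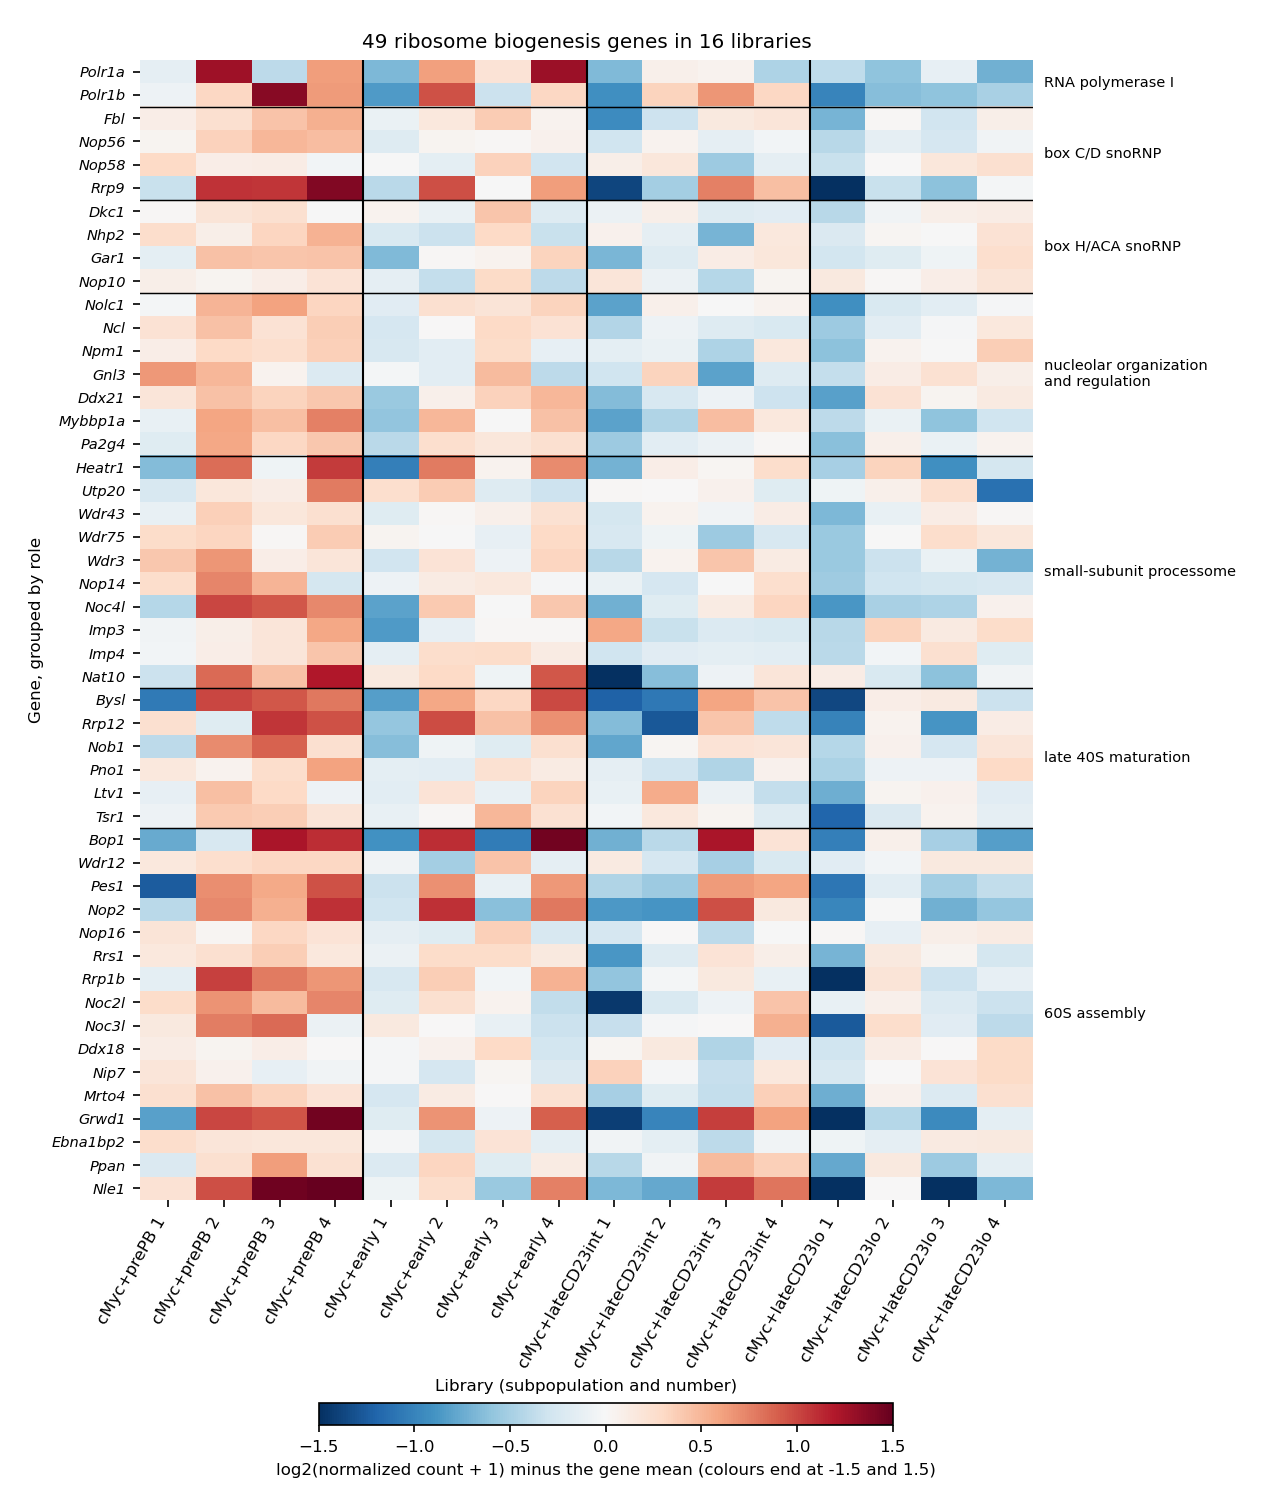
Colour shows log2(normalized count + 1) of each of the 49 genes (rows, grouped by role) in each of the 16 libraries (columns) minus the mean of that gene. The libraries numbered 2 to 4 of cMyc+prePB are mostly red, and the library numbered 1 is the bluest in each subpopulation, with 31, 30, 27 and 39 of the 49 genes at their group minimum in the order of the columns, from cMyc+prePB to cMyc+lateCD23lo.

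By limma's moderated F test over the 4 subpopulations, 0 of the 49 genes and 0.408% of all tested genes (51 of 12505) had an adjusted p under 0.05. At an unadjusted p under 0.05 the counts were 11 of the 49 genes and 10.2% of all tested genes. edgeR, run on the reads recovered from 15 libraries, also called 0 of the 49. The 12 genes with the smallest F test p were Nop56, Nle1, Ncl, Wdr3, Nolc1, Nop14, Rrp9, Rrp1b, Polr1b, Noc2l, Noc4l and Nat10. In each of them the mean was highest in cMyc+prePB.

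The pairwise comparisons placed cMyc+prePB above both late subpopulations by about the same amount and above cMyc+early by less. With subpopulation means alone in the model, none of the 49 genes passed an adjusted p of 0.05 in any of the 6 limma comparisons. edgeR called none either. For cMyc+prePB against cMyc+lateCD23lo the median log2 fold change of the 49 genes was 0.47, a 1.38-fold difference, with 47 genes higher in cMyc+prePB, beside a median of -0.0064 over all tested genes, of which 49.5% were higher. Adjusted calls were made for 0.264% of all tested genes there, and at an unadjusted p under 0.05 for 19 of the 49 genes, all higher in cMyc+prePB, against 12.7% of all tested genes. In 10 of the 49 genes all 4 cMyc+prePB libraries lay above all 4 cMyc+lateCD23lo libraries, which was so for 3.01% of all tested genes. For cMyc+prePB against cMyc+lateCD23int the median was 0.45, with 48 genes higher. Adjusted calls covered 0.144% of all tested genes, and the unadjusted counts were 18 of the 49 genes, all higher in cMyc+prePB, against 8.77% of all genes. Groups were separate with cMyc+prePB higher in 7 of the 49 genes and in 2.46% of all genes.

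For cMyc+prePB against cMyc+early the median was 0.24, with 48 genes higher in cMyc+prePB. Of all tested genes 0.192% passed the adjusted threshold, and the unadjusted counts were 2 of the 49 genes (Nop56 and Nhp2) against 8.58% of all genes. The groups were separate in 1 of the 49 genes against 2.06% of all genes. The direction was shared by nearly all members while few single members stood out from the spread between libraries. This direction was not particular to the 49 genes. It was also that of 84 of 87 cytosolic and 65 of 77 mitochondrial ribosomal protein genes (medians 0.29 and 0.13). For cMyc+early against cMyc+lateCD23int the median was 0.14 with 40 genes higher in cMyc+early, 0.008% of all genes passed the adjusted threshold, and 1 of the 49 (Nat10) against 3.71% of all genes passed the unadjusted threshold. For cMyc+early against cMyc+lateCD23lo the median was 0.25 with 37 genes higher in cMyc+early. There 0.28% of all genes passed the adjusted threshold, and 6 of the 49 (Nle1, Wdr3, Nolc1, Rrp9, Tsr1 and Grwd1) against 10.3% of all genes passed the unadjusted one. Groups were separate in 1 of the 49 genes in each of these comparisons, against 1.11% and 2.86% of all genes. Between the late subpopulations the median was -0.0021, with 24 genes higher in cMyc+lateCD23int and 25 higher in cMyc+lateCD23lo, and it was 0.0442 with 31 genes higher in cMyc+lateCD23int after rescaling to equal totals, so its direction depended on the scaling. It also depended on single libraries, at -0.142 without library 1 of cMyc+lateCD23lo and 0.184 without library 1 of cMyc+lateCD23int. Leaving out 1 library at a time moved the median of cMyc+early against cMyc+lateCD23int between 0.0784 (without library 1 of cMyc+lateCD23int) and 0.267 (without library 1 of cMyc+early), and that of cMyc+early against cMyc+lateCD23lo between 0.127 (without library 1 of cMyc+lateCD23lo) and 0.346 (without library 1 of cMyc+early). For cMyc+lateCD23int against cMyc+lateCD23lo 0.008% of all genes passed the adjusted threshold. The unadjusted one was passed there by 2 of the 49 (Nle1 and Wdr3) against 6.28% of all genes. Separate groups with cMyc+lateCD23int higher were found in 0 of the 49 against 1.91% of all genes. The 6 comparisons share their groups and are not independent of each other.

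**Figure D2:**
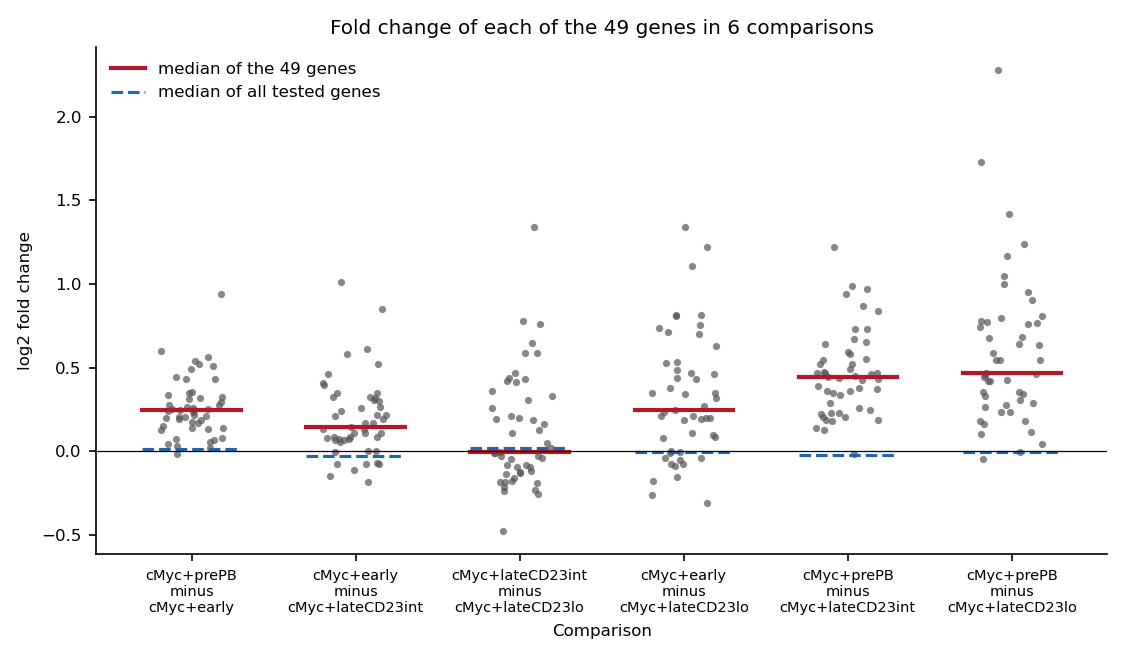
Each point is the log2 fold change of 1 of the 49 genes in the comparison named under it; the red line is the median of the 49 and the dashed blue line the median of all 12505 tested genes. The red median stands at 0.24, 0.45 and 0.47 in the comparisons of cMyc+prePB with cMyc+early, cMyc+lateCD23int and cMyc+lateCD23lo, and at -0.0021 between the late subpopulations.

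The libraries numbered 1 stood apart within each subpopulation, and the main values that rest on them are given without them too. Without these 4 libraries the median for cMyc+prePB against cMyc+lateCD23lo was 0.46, with 45 genes higher in cMyc+prePB. Then 5 of the 49 genes had an adjusted p under 0.05, namely Nop56, Rrp9, Nolc1, Noc4l and Rrp1b, all higher in cMyc+prePB, against 1.63% of all tested genes. Leaving out the library numbered 1 of cMyc+prePB alone gave 3 calls in this comparison, Nop56, Noc4l and Nle1, against 1.22% of all genes. The medians without the 4 libraries were 0.24 against cMyc+early and 0.44 against cMyc+lateCD23int. With all 16 libraries and the means of the library numbers added to the model, 4 of the 49 genes passed the F test (1.38% of all genes). In that model 6 passed for cMyc+prePB against cMyc+lateCD23lo (1.54%) and 3 against cMyc+lateCD23int (0.968%).

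Nucleolar organization and regulation was represented by 7 genes, and for all 7 the fold change was positive in cMyc+prePB against cMyc+lateCD23lo, with a median log2 fold change of 0.44 and a range of 0.24 to 0.77. In this comparison 12.7% of all tested genes had an unadjusted p under 0.05, the share beside which the counts of the roles below stand. Ncl encodes nucleolin, an abundant RNA-binding protein of the nucleolus (ENSMUSG00000026234, chr1:86344719-86359400, minus strand, GRCm38). Its normalized count was 44246, 51406, 44241 and 49276 in cMyc+prePB libraries 1 to 4. In cMyc+early it was 32071, 38218, 46753 and 44292, in cMyc+lateCD23int 27953, 36232, 33195 and 32360, and in cMyc+lateCD23lo 26017, 34100, 37529 and 42460. Every cMyc+prePB library was above every library of either late subpopulation, and the log2 fold changes were 0.55 ± 0.155 (SE, limma adjusted p = 0.24) against cMyc+lateCD23int and 0.45 ± 0.155 (adjusted p = 0.245) against cMyc+lateCD23lo. Npm1 encodes nucleophosmin, a histone chaperone that organizes the outer nucleolus (ENSMUSG00000057113, chr11:33152287-33163206, minus strand). It was read at 36713, 42438, 41098 and 44041 in cMyc+prePB and at 29092, 30721, 41490 and 31490 in cMyc+early. Its counts were 31165, 32012, 24904 and 38482 in cMyc+lateCD23int and 22510, 35585, 34122 and 44343 in cMyc+lateCD23lo, so the groups overlapped (log2 fold change of cMyc+prePB against cMyc+lateCD23lo 0.305, or 0.118 without library 1 of cMyc+lateCD23lo). Processed pseudogenes near-identical to Npm1 summed to a mean of 503 normalized counts, and reads may be split among them. Nolc1, a chaperone of snoRNPs (ENSMUSG00000015176, chr19:46075863-46085530, plus strand), had 4401, 6438, 6820 and 5647 in cMyc+prePB and 4002, 5310, 5151 and 5698 in cMyc+early. It had 2589, 4746, 4495 and 4659 in cMyc+lateCD23int and 2382, 3841, 4027 and 4432 in cMyc+lateCD23lo, and in the latter comparison only the library numbered 1 of cMyc+prePB, at 4401, lay below a cMyc+lateCD23lo library, at 4432 (log2 fold change 0.69 ± 0.223, adjusted p = 0.222). The nucleolar GTPase nucleostemin (Gnl3), the RNA helicase Ddx21, Mybbp1a and Pa2g4 each had their highest mean in cMyc+prePB, and none passed the test.

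The core proteins of box C/D snoRNPs, which guide 2′-O-methylation of rRNA, were represented by Fbl, Nop56 and Nop58, and the U3 protein Rrp9 was grouped with them. All 4 were higher in cMyc+prePB than in cMyc+lateCD23lo, with log2 fold changes of 0.10 to 1.73. Nop56 (ENSMUSG00000027405, chr2:130274430-130279313, plus strand) had the smallest F test p of the 49 genes. Its normalized counts were 14150, 17404, 19315 and 18819 in cMyc+prePB and 11979, 14149, 13839 and 14289 in cMyc+early. They were 11163, 14240, 12535 and 13284 in cMyc+lateCD23int and 10284, 12470, 11548 and 13221 in cMyc+lateCD23lo. Libraries 2 to 4 of cMyc+prePB exceeded every other library, and library 1 exceeded every cMyc+lateCD23lo library (log2 fold change 0.55 ± 0.132, adjusted p = 0.0907). Rrp9 (ENSMUSG00000041506, chr9:106475963-106485424, plus strand), which joins the U3 snoRNP needed for the first cuts of the precursor, spread more widely. It stood at 692, 1844, 1833 and 2274 in cMyc+prePB, at 658, 1702, 865 and 1345 in cMyc+early, at 334, 613, 1471 and 1193 in cMyc+lateCD23int and at 130, 689, 568 and 855 in cMyc+lateCD23lo. The library numbered 1 was the lowest in each group (cMyc+prePB against cMyc+lateCD23lo, log2 fold change 1.73 ± 0.554, adjusted p = 0.216), and the log2 fold change of Rrp9 was 1.13 without library 1 of cMyc+lateCD23lo and 1.51 without the 4 libraries numbered 1. Fbl encodes fibrillarin, the methyltransferase of these particles (ENSMUSG00000046865, chr7:28169710-28179269, plus strand). It was counted at 2163, 2378, 2701 and 2914 in cMyc+prePB and at 1877, 2243, 2619 and 2093 in cMyc+early. In the late subpopulations its counts were 1051, 1628, 2236 and 2285 (cMyc+lateCD23int) and 1244, 2036, 1655 and 2144 (cMyc+lateCD23lo), all 4 of the latter below every cMyc+prePB library (log2 fold change 0.54 ± 0.235, adjusted p = 0.346).

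The box H/ACA snoRNP proteins, which carry out pseudouridylation, had the smallest median of the roles between cMyc+prePB and cMyc+lateCD23lo, and the largest between cMyc+prePB and cMyc+early (0.303). Of the 4 genes (Dkc1, Nhp2, Gar1 and Nop10) 3 were higher in cMyc+prePB than in cMyc+lateCD23lo, with a median log2 fold change of 0.23 and a range of -0.0053 to 0.35, and 0 reached an unadjusted p under 0.05 there. Dkc1 encodes dyskerin, the pseudouridine synthase (ENSMUSG00000031403, chrX:75095854-75109777, plus strand). Its counts were 13113, 14879, 15377 and 12925 in cMyc+prePB, 13457, 12130, 17349 and 11332 in cMyc+early, 12252, 13784, 11350 and 11503 in cMyc+lateCD23int and 9750, 12557, 13761 and 14071 in cMyc+lateCD23lo. The 4 groups overlapped (log2 fold change 0.18 ± 0.151, adjusted p = 0.644, or 0.0616 without library 1 of cMyc+lateCD23lo). Both snoRNP types share the same layout of a catalytic subunit with scaffold proteins, and the difference between them was not tested.

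RNA polymerase I was represented by its largest catalytic subunits, Polr1a and Polr1b. Polr1b (ENSMUSG00000027395, chr2:129100995-129126594, plus strand) had 503, 657, 1363 and 823 normalized counts in cMyc+prePB, 292, 1026, 422 and 656 in cMyc+early, 279, 669, 839 and 654 in cMyc+lateCD23int and 265, 339, 347 and 378 in cMyc+lateCD23lo. All cMyc+prePB libraries were above all cMyc+lateCD23lo libraries, whose values lay close together (log2 fold change 1.24 ± 0.403, adjusted p = 0.22). Polr1a differed in the same direction with overlapping groups (log2 fold change 0.80, adjusted p = 0.41).

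The small-subunit processome, the particle that makes the first cuts around the 18S rRNA, contributed 10 genes. All 10 were higher in cMyc+prePB than in cMyc+lateCD23lo (median log2 fold change 0.53, range 0.12 to 0.999), and 3 of them, Wdr3, Nop14 and Noc4l, had an unadjusted p under 0.05. Wdr3, a WD-repeat protein of the UTP-B module (ENSMUSG00000033285, chr3:100138180-100162407, minus strand), had 2962, 3547, 2397 and 2537 in cMyc+prePB and 1838, 2578, 2125 and 2793 in cMyc+early. It had 1672, 2330, 2994 and 2447 in cMyc+lateCD23int and 1527, 1786, 2086 and 1371 in cMyc+lateCD23lo, the last group lying wholly below cMyc+prePB (log2 fold change 0.76 ± 0.205, adjusted p = 0.136). Nop14 and Noc4l encode proteins that bind each other in this particle. Nop14 (ENSMUSG00000036693, chr5:34638536-34660148, minus strand) was at 2082, 2882, 2481 and 1444 in cMyc+prePB, 1643, 1886, 1936 and 1714 in cMyc+early, 1619, 1462, 1733 and 2069 in cMyc+lateCD23int and 1202, 1416, 1450 and 1466 in cMyc+lateCD23lo. Its library numbered 4 of cMyc+prePB lay within the cMyc+lateCD23lo range (log2 fold change 0.64 ± 0.196, adjusted p = 0.188). Noc4l (ENSMUSG00000033294, chr5:110648418-110653417, minus strand) was at 1446, 3903, 3725 and 3201 in cMyc+prePB, 1114, 2544, 1938 and 2572 in cMyc+early, 1177, 1721, 2125 and 2437 in cMyc+lateCD23int and 1060, 1383, 1411 and 2035 in cMyc+lateCD23lo. Here libraries 2 to 4 of cMyc+prePB were above every other library and library 1 was not (log2 fold change 0.999 ± 0.33, adjusted p = 0.227). Nat10, the cytidine acetyltransferase of 18S rRNA (ENSMUSG00000027185, chr2:103721256-103761270, minus strand), had 318, 719, 542 and 919 in cMyc+prePB, 442, 488, 381 and 763 in cMyc+early, 87.6, 254, 379 and 452 in cMyc+lateCD23int and 429, 339, 260 and 384 in cMyc+lateCD23lo. Its widest difference was with cMyc+lateCD23int (log2 fold change 1.22 ± 0.444, adjusted p = 0.428), and the low value of library 1 of that group, 87.6, entered it.

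Late 40S maturation, the steps from nuclear export to the last cut of 18S rRNA by the endonuclease Nob1, was represented by Bysl, Rrp12, Nob1, Pno1, Ltv1 and Tsr1. All 6 were higher in cMyc+prePB than in cMyc+lateCD23lo, with a median log2 fold change of 0.53 and a range of 0.34 to 0.95, and 1 of them (Tsr1, 0.59 ± 0.222, adjusted p = 0.274) had an unadjusted p under 0.05. The exons of Tsr1 overlap those of Srr on the opposite strand over 1240 bases, more than for any other member, so that reads of the pair may be shared if strand was not used.

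Assembly of the 60S subunit was the widest group, with 16 genes, of which 15 were higher in cMyc+prePB than in cMyc+lateCD23lo (median log2 fold change 0.61, range -0.0479 to 2.28) and 8 had an unadjusted p under 0.05. Nle1 (ENSMUSG00000020692, chr11:82900768-82908411, minus strand), a WD-repeat factor that leaves the maturing large subunit in the nucleus, had the highest fold change of the 49 genes and a low level. Its counts were 336, 566, 799 and 836 in cMyc+prePB, 278, 350, 197 and 488 in cMyc+early, 181, 170, 601 and 506 in cMyc+lateCD23int and 51.7, 291, 80.5 and 182 in cMyc+lateCD23lo. All cMyc+prePB libraries exceeded all cMyc+lateCD23lo libraries (log2 fold change 2.28 ± 0.542, adjusted p = 0.0848), and cMyc+lateCD23int reached into both groups. Rrp1b, a nucleolar pre-60S factor (ENSMUSG00000058392, chr17:32036100-32062865, plus strand), was at 1351, 3058, 2565 and 2371 in cMyc+prePB, 1263, 1933, 1449 and 2156 in cMyc+early, 994, 1468, 1651 and 1382 in cMyc+lateCD23int and 351, 1704, 1202 and 1371 in cMyc+lateCD23lo. The library numbered 1 was again the lowest of each group (log2 fold change 1.17 ± 0.38, adjusted p = 0.222), and the log2 fold change of Rrp1b was 0.666 without library 1 of cMyc+lateCD23lo and 0.909 without the 4 libraries numbered 1. Noc2l, which pairs with NOC3L on pre-60S particles (ENSMUSG00000095567, chr4:156236010-156247616, plus strand), was at 1105, 1461, 1274 and 1517 in cMyc+prePB, above all libraries of cMyc+early (807, 1086, 952 and 709) and of cMyc+lateCD23lo (846, 965, 793 and 732). Only library 4 of cMyc+lateCD23int, at 1228 beside 336, 783 and 871, reached its range (log2 fold change of cMyc+prePB against cMyc+lateCD23lo 0.68 ± 0.297, adjusted p = 0.352). Nip7 and Ddx18 lay nearest to 0 in this group, with log2 fold changes of -0.0479 and 0.0412.

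**Figure D3:**
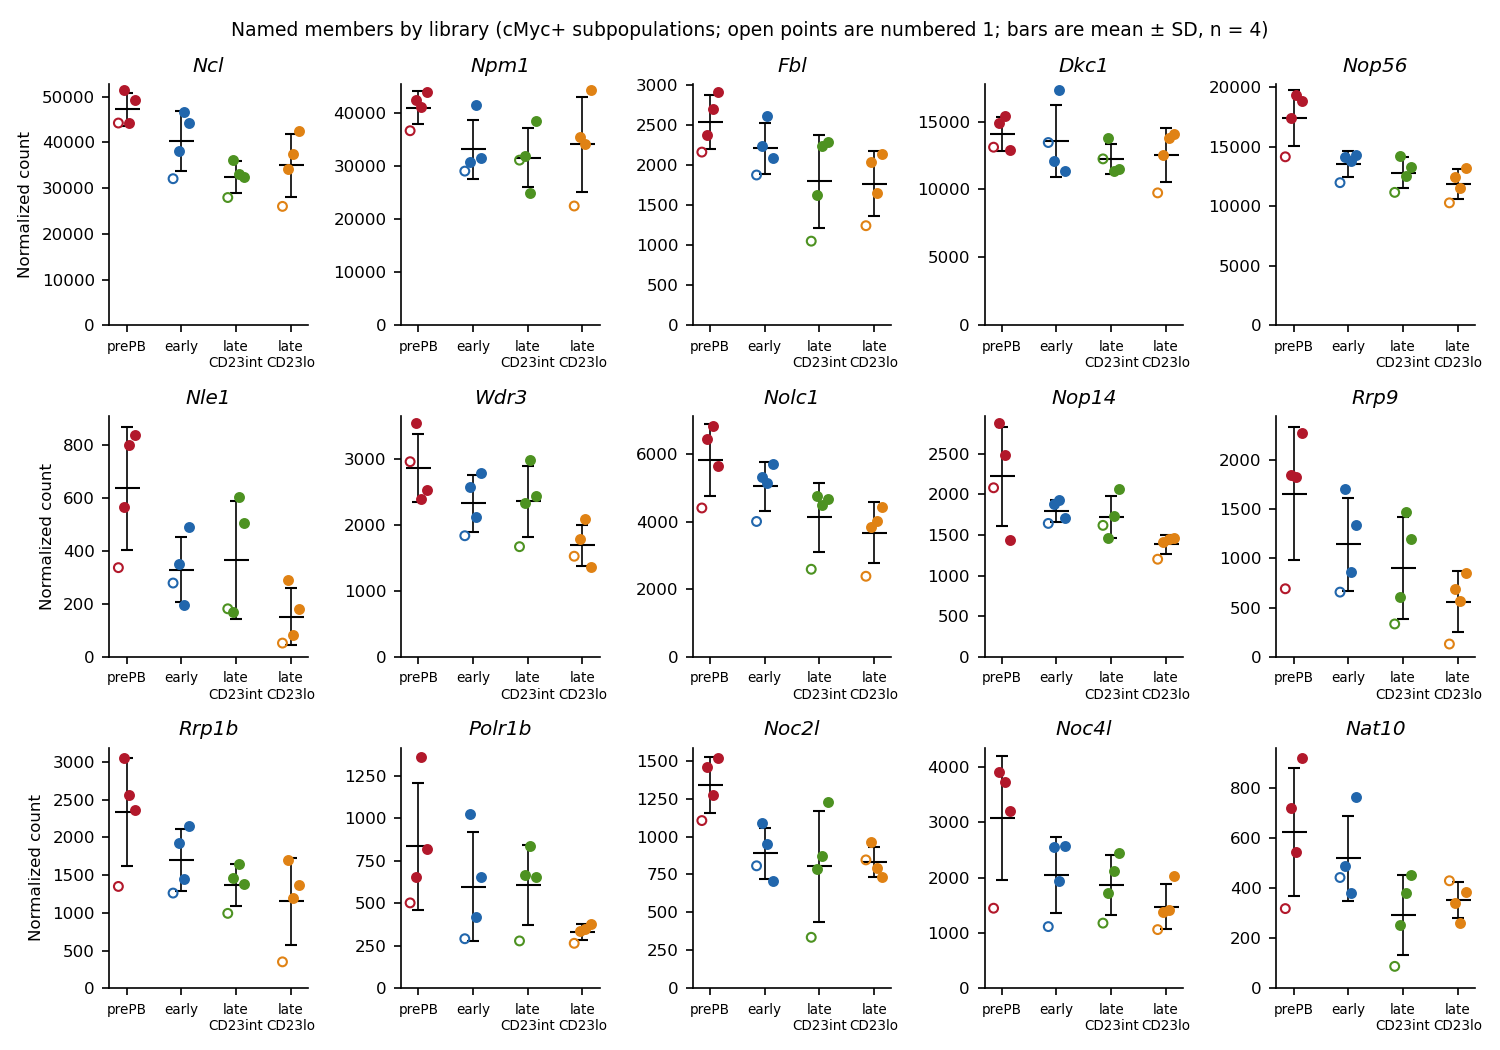
Normalized counts (vertical axis, from 0) of 15 named genes in each library; points are libraries, open where the library is numbered 1, and bars are the mean ± SD of 4 libraries. Nop56 at 14150 to 19315 and Nle1 at 336 to 836 in cMyc+prePB lie above all cMyc+lateCD23lo values (10284 to 13221 and 51.7 to 291), whereas the groups of Dkc1 and Npm1 overlap.

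Per kilobase of exon the levels of the members spanned a wide range. Npm1 was the highest, at 13100 normalized counts per kilobase, followed by the short transcripts Nhp2 (8820) and Nop10 (4250), whereas Rrp12 (50.6), Polr1a (51.2) and Utp20 (58.3) were the lowest. In log2 units the spread between libraries of 1 subpopulation was 0.149 for Ebna1bp2 and 0.955 for Bop1, the narrowest and the widest. Among 8 of the members (Dkc1, Gnl3, Ncl, Nop56, Nop58, Ppan, Tsr1 and Wdr43) the annotation places 23 snoRNA genes inside the gene on the same strand, with 5 in Nop56 alone. Such hosts made up 16.3% of the 49 genes and 1.8% of the tested genes matched in the annotation. Exons of 14 members overlapped those of another gene with a mean of at least 10, each time on the opposite strand.

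The mean log2 score, the mean of log2(normalized count + 1) over the 49 genes with the mean of the 16 libraries subtracted, summarized the pattern by library. It was -0.0584, 0.451, 0.443 and 0.486 in cMyc+prePB libraries 1 to 4 and -0.278, 0.214, 0.0741 and 0.242 in cMyc+early. In cMyc+lateCD23int it was -0.483, -0.183, 0.0436 and 0.0826, and in cMyc+lateCD23lo -0.69, -0.0512, -0.201 and -0.0903. The group means were 0.33 ± 0.26, 0.0629 ± 0.239, -0.135 ± 0.26 and -0.258 ± 0.295 (SD, n = 4) in that order, and the library numbered 1 was the lowest of each subpopulation. The members also shared deviations within subpopulations, mainly through the libraries numbered 1. After subtraction of the subpopulation means the median correlation between pairs of members was 0.365, beside -0.00208 between all pairs of tested genes and 0.0691 between the 3651 tested genes with a mean of at least 1000. When the means of the library numbers were subtracted too, the median among members was 0.0292, and without the libraries numbered 1 it was 0.0225.

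Other measures separated the libraries numbered 1 as well. The summed level of the 6 B cell markers ranged from 82717 to 233305 and was highest in the library numbered 1 of each subpopulation, and after subtraction of subpopulation means it had a Pearson correlation of -0.93 with the score over the 16 libraries and of -0.47 without those numbered 1. The sum of the naive follicular B cell markers was highest in the library numbered 1 in 4 of 4 subpopulations (r = -0.77, or -0.32 without those libraries) and that of the GC B cell markers in 3 of 4 (r = -0.84, or -0.54). The share of mitochondrial transcripts ranged from 1.34% to 2.95%, with 1.83%, 1.87%, 2.95% and 2.26% in the libraries numbered 1, and correlated with the score at r = -0.74 in the same way, or 0.0652 without those libraries. The total normalized count of a library (log2) correlated with the score at r = -0.695 over the 16 libraries. After subtraction of subpopulation means this r was -0.712, and with the means of the library numbers subtracted too it was -0.54. The part of these differences in the score was not tested.

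Myc itself was read at 2300, 4165, 4411 and 4417 normalized counts in cMyc+prePB libraries 1 to 4 and at 1183, 3503, 1760 and 3563 in cMyc+early. It was read at 857, 1801, 3817 and 1839 in cMyc+lateCD23int and at 1528, 1698, 1282 and 1198 in cMyc+lateCD23lo. Its group means in that order were 3823 ± 1022, 2503 ± 1214, 2079 ± 1245 and 1427 ± 229 (SD, n = 4), and the widest difference, cMyc+prePB against cMyc+lateCD23lo, was a log2 fold change of 1.39 with a limma adjusted p of 0.151. All cells had been sorted as cMycGFP+, so these values are differences within that gate.

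Libraries with more Myc had a higher score. Over the 16 libraries Pearson's r was 0.836 and Spearman's rho 0.879, given as a description because both values come from the same libraries and share their depth and quality. Without the libraries numbered 3 and 4 of cMyc+prePB, the 2 farthest from the median of Myc, r was 0.772 over 14 libraries. Within subpopulations, after subtraction of their means, r was 0.695 and rho 0.653, and score and Myc ordered 19 of the 24 pairs of libraries of 1 subpopulation alike. Subtraction of the means of the library numbers as well left r = 0.31. Without the 4 libraries numbered 1, r was 0.867 over 12 libraries, 0.593 after subtraction of subpopulation means and 0.733 after subtraction of both means.

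**Figure D4:**
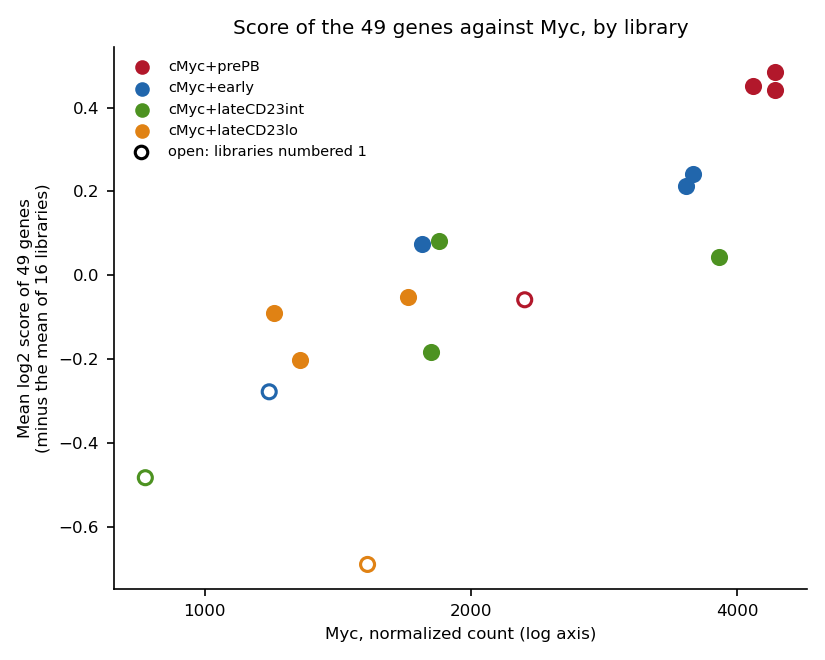
The mean log2 score of the 49 genes (vertical axis, mean of the 16 libraries set to 0) against the normalized count of Myc (log axis), 1 point per library, coloured by subpopulation and open for the libraries numbered 1. The 3 filled cMyc+prePB points lie at the upper right with scores of 0.443 to 0.486 and Myc of 4165 to 4417, and the lowest score, -0.69, belongs to library 1 of cMyc+lateCD23lo.

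Gene by gene, the slope on Myc within subpopulations (log2 units per log2 unit of Myc, with the 4 subpopulation means in the limma model) was above 0 for 36 of the 49 genes and passed an adjusted p of 0.05 for 16. Of the 12504 other genes 16.9% passed. The 16 comprised 14 positive slopes, against 8.52% of all genes with a called positive slope, and 2 negative slopes, against 8.37% with a called negative one. With rescaling to equal totals the calls were 24 positive and none negative, with 16.3% of all genes called, and with quantile normalization 18 positive and none negative, with 13.5% of all genes called. At an unadjusted p under 0.05 the counts were 31 of the 49 and 30.5% of all genes. The median slope was 0.29 for the members and 0.0224 for all genes. The steepest slopes belonged to Bop1 (1.26 ± 0.224, SE, adjusted p = 0.00149), Grwd1 (1.03 ± 0.233, adjusted p = 0.0065), Bysl (0.99 ± 0.234, adjusted p = 0.00819), Nop2 (0.94 ± 0.167, adjusted p = 0.00147), Rrp9 (0.90 ± 0.285, adjusted p = 0.037) and Polr1b (0.80 ± 0.169, adjusted p = 0.00429). Bop1 is a subunit of the PeBoW complex, which is needed for processing of the large-subunit rRNAs, Grwd1 a pre-60S factor, Bysl a late 40S factor and Nop2 an rRNA cytosine methyltransferase. The lowest slopes belonged to Gnl3 (-0.30 ± 0.134, adjusted p = 0.133), Nop58 (-0.28 ± 0.0832, adjusted p = 0.0299) and the pre-60S factor Nip7 (-0.27 ± 0.0737, adjusted p = 0.0194). With the means of the library numbers added to the model, 22 of the 49 slopes were above 0 and the median was -0.0429. Then 3 positive slopes (Bop1, Nop2 and Mybbp1a) and 10 negative ones passed, against 8.16% of all genes, so calls and direction both depended on the model.

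The values behind these slopes show how far apart libraries of the same subpopulation were. Bop1 (chr15:76452989-76477277, minus strand) was at 291, 417, 1150 and 1063 in cMyc+prePB, 262, 1057, 237 and 1340 in cMyc+early, 299, 371, 1154 and 569 in cMyc+lateCD23int and 241, 518, 349 and 277 in cMyc+lateCD23lo. Grwd1 (chr7:45825223-45830944, minus strand) was at 738, 2607, 2503 and 3560, then 1153, 2076, 1235 and 2431, then 489, 654, 2667 and 1975, and then 429, 970, 674 and 1178 in the same order. In cMyc+early both were high in libraries 2 and 4, and in cMyc+lateCD23int they were highest in library 3, which were also the libraries with the most Myc there. Nop58 (chr1:59684971-59719044, plus strand) ran the other way in these groups, with 14310, 12940, 18288 and 11720 in cMyc+early and 15201, 16110, 9868 and 13061 in cMyc+lateCD23int. Nip7 (chr8:107056877-107060931, plus strand) did so too, with 4392, 3728, 4531 and 3820 in cMyc+early and 5626, 4382, 3483 and 4962 in cMyc+lateCD23int.

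By role, the called positive slopes with subpopulation means alone in the model were 5 of the 16 genes of 60S assembly (Bop1, Grwd1, Nop2, Pes1 and Ppan), 3 of the 10 processome genes (Heatr1, Nat10 and Noc4l), 2 of the 6 late 40S genes (Bysl and Nob1) and 1 each in RNA polymerase I (Polr1b), box C/D (Rrp9), box H/ACA (Gar1) and nucleolar organization (Mybbp1a). The members with CACGTG in their window and those without had median slopes of 0.148 and 0.134. Called positive slopes were 4 of 11 among the former and 9 of 33 among the latter, and the difference was not tested.

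The slopes followed the base composition of the transcripts. Across the 49 genes Spearman's rho between the slope and the GC content of the longest annotated transcript was 0.67, and across the 12470 tested genes with a transcript it was 0.368. These are correlations across genes, which are not independent replicates. Of the 26 members with a GC content over the median of tested genes (48.7%), 24 had a positive slope and 13 a called positive one, with a median of 0.545. Of the other 23 members, 12 had a positive slope, 1 a called positive and 2 a called negative one, with a median of 0.0324. Across members the slope also fell with the mean level (rho = -0.69). The log2 fold changes of cMyc+prePB against cMyc+lateCD23lo followed the same 2 properties. Across the 49 genes their rho was 0.564 with GC content and -0.66 with the mean level. Across the 12470 genes it was 0.25 with GC content. Their median was 0.755 for the 26 members over 48.7% GC and 0.329 for the other 23. The correlation of each library's deviations with GC content ran from -0.164 to 0.221, and it correlated over the 16 libraries with both the score (r = 0.764) and Myc (r = 0.828), so that on this axis the 3 quantities cannot be told apart. After the dependence on GC content had been subtracted from each library, an alternative chosen after seeing the data, 4 of the 49 slopes passed the test (Polr1b, Heatr1 and Bop1 above 0 and Nhp2 below) against 10.1% of all genes, the median slope was 0.113, and r between score and Myc was 0.71 over the 16 libraries and 0.294 within subpopulations. With the means of the library numbers subtracted too, it was -0.886 (rho = -0.859), the opposite direction.

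**Figure D5:**
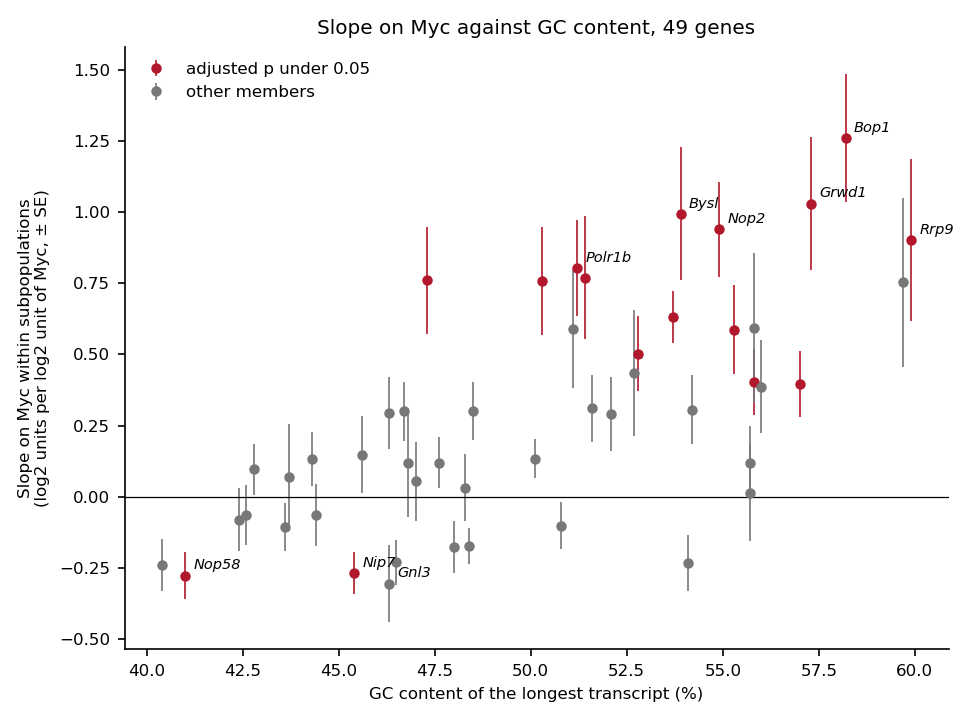
Slope of each of the 49 genes on Myc within subpopulations (vertical axis, log2 units per log2 unit of Myc, ± SE) against the GC content of its longest transcript (horizontal axis), with slopes of adjusted p under 0.05 in red. Of the 26 genes over 48.7% GC 24 lie above 0, with Bop1 at 1.26, while Nop58 and Nip7, the 2 called negative slopes, have GC contents of 41% and 45.4%.

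The slopes also rested on few libraries. Without library 1 of cMyc+lateCD23int 8 of the 49 passed, against 11.5% of all genes. Without the 4 libraries numbered 1, 9 passed against 6.2% of all genes, 2 above 0 (Bop1 and Nop2) and 7 below (Nop58, Nhp2, Nop10, Npm1, Gnl3, Nop16 and Ebna1bp2), and the median slope was 0.0323. The higher level in cMyc+prePB held under the same changes. With GC content subtracted, the group means of the score were 0.328 ± 0.189, 0.0769 ± 0.163, -0.2 ± 0.144 and -0.205 ± 0.305 (SD, n = 4) from cMyc+prePB to cMyc+lateCD23lo, and the median log2 fold changes of cMyc+prePB against cMyc+early, cMyc+lateCD23int and cMyc+lateCD23lo were 0.23, 0.50 and 0.505, with 0 members called.

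Other genes of the pathway, from lists that hold none of the 49, gave smaller medians. Both the 49 genes and these lists were chosen with earlier results of these data known. The difference between their medians is therefore a description and was not tested. Among 51 other 60S assembly genes the median log2 fold change of cMyc+prePB against cMyc+lateCD23lo was 0.26 with 39 higher, and among 45 other processome and 40S genes it was 0.21 with 31 higher. Among 14 other genes of RNA polymerase I and rDNA transcription it was -0.16 with 6 higher, or -0.0737 after rescaling to equal totals, and among 14 RNA exosome genes, whose complex trims rRNA precursors, it was -0.0257 with 6 higher, or 0.0552 with 8 higher after rescaling to equal totals. None of these genes passed an adjusted p of 0.05 in the limma F test or in any of the 6 comparisons, and 1, 2, 3 and 1 of the polymerase, processome, 60S and exosome genes had an unadjusted F test p under 0.05, beside 10.2% of all genes. The genes with the smallest p were Polr1e, Ubtf and Polr1c, then Utp4, Nol6 and Tbl3, then Efl1, Eif6 and Nop53, and then Mphosph6, Exosc10 and Exosc5. Nol6, a processome scaffold, had a mean of 195 ± 93.5 in cMyc+prePB libraries and of 45.6 ± 11.9 in cMyc+lateCD23lo libraries (SD, n = 4, limma adjusted p over the 4 groups = 0.398). Efl1, the GTPase that helps release EIF6 from the 60S subunit, had 1039 ± 338 and 478 ± 148 in the same groups (adjusted p = 0.305), and Eif6 had 9361 ± 854 and 6942 ± 1219 (adjusted p = 0.321). Mphosph6, an exosome cofactor, had 2735 ± 583 and 3628 ± 327 (adjusted p = 0.301).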

How the data were processed

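RNA-seq libraries of 16 sorted cMyc+ GC B cell samples were analysed, 4 for each subpopulation. The submitters' processing notes name Trimmomatic 0.36, STAR 2.5.2a, RSEM 1.2.31, DESeq2 1.20.0, R 3.5.1 and the build GRCm38. The deposited values are normalized counts, a signal in which each library's counts are divided by 1 factor, so that whole reads were recovered for 15 libraries (100% of values within 0.01 of a whole number), but not for library 1 of cMyc+lateCD23int, whose factor is near 1. Strandedness is not given in the sources used here, so reads of overlapping genes and near-identical copies may be shared.

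From these values log2(normalized count + 1) was fitted for 12505 genes with a mean of at least 10 by limma 3.58.1 in R 4.3.3 (trend, 4 group means over 16 libraries, Benjamini-Hochberg over all genes, threshold 0.05), with an F test, 6 two-sided pairwise contrasts and, in a second model, a slope on log2 Myc. Fold changes are on this log2 scale and slightly understate those of low genes. The fit was tested on simulated data. Alternatives were pseudocounts of 0.5 and 5, no filter or a mean of at least 50, rescaling to equal totals, quantile normalization, a replicate block, each library left out, and edgeR 4.0.16 with TMM on the recovered reads of 15 libraries. Removal of the libraries numbered 1 and subtraction of GC content (a spline with 4 degrees of freedom in each library) were added after seeing the data. Positions, exon lengths and transcripts came from GENCODE vM21 and promoters from RefSeq.

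The 49 genes, their roles and the other lists were chosen with earlier results of these data known. Values in every library are given for Ncl, Npm1, Fbl, Dkc1 and Nop56, for members past the threshold in a comparison of subpopulations, and for the 12 with the smallest F test p; the 6 steepest and 3 lowest slopes on Myc and 3 genes per other list are named. Further genes named beside counts or slopes were chosen after their values were seen.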

Additional observations from a re-analysis of the deposited data

Results flagged for a closer look

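In 3 of 68 groups of 4 libraries examined for the score, Myc and the 15 genes with values in every library, 1 library lay far from the other 3, and about 3.4 such groups of 68 are expected by chance. The score of cMyc+prePB library 1 was -0.0584, beside 0.443 to 0.486 in the other 3, a gap of 0.92 of the group's range. Myc in the same library was 2300 normalized counts, beside 4165 to 4417, a gap of 0.91 of the range on the log2 scale. Nolc1 in cMyc+lateCD23int library 1 was 2589, beside 4495 to 4746, again a gap of 0.91. All 3 values belong to libraries numbered 1, and the cause was not tested.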

How the results depend on the processing

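The medians of the 49 genes for cMyc+prePB against the other subpopulations stayed positive under every alternative run, and none of the 6 steepest and 3 lowest slopes changed sign except under the combination given last. Leaving out 1 library at a time, members called ranged from 0 to 3 for cMyc+prePB against cMyc+lateCD23lo (3 without library 1 of cMyc+prePB), from 8 to 24 for the slope on Myc (8 without library 1 of cMyc+lateCD23int, 24 without library 1 of cMyc+lateCD23lo, where 19.6% of all genes were called), and were 0 in the F test and the other comparisons. The same medians ranged from 0.155 to 0.33 against cMyc+early, 0.351 to 0.522 against cMyc+lateCD23int and 0.361 to 0.617 against cMyc+lateCD23lo. Without the 4 libraries numbered 1, members called were 5 for cMyc+prePB against cMyc+lateCD23lo and 9 for the slope, with a median slope of 0.0323. With edgeR 7 slopes were called (9.19% of all genes), with no subpopulation means 27 (18.3%), and with GC content subtracted 4 (10.1%, median slope 0.113). For score and Myc, r was 0.725 with genes scaled to SD 1 and 0.71 with GC content subtracted. The labels do not say whether the numbers pair the libraries, and the values did not settle what a number stands for. Same-numbered libraries had deviations correlated at 0.0661 to 0.174 for number 1 and at -0.05 to 0.0831 for number 2. The range was -0.129 to 0.0764 for number 3 and 0.0352 to 0.101 for number 4. A shared deviation was thus clearest for the libraries numbered 1. While 5 of 24 same-numbered pairs of libraries had deviations correlated over 0.1, 10 of 16 libraries correlated best with their own number in other subpopulations. With the replicate block 4 members passed the F test (1.38% of all genes), 3 cMyc+prePB against cMyc+lateCD23int (0.968%), 6 cMyc+prePB against cMyc+lateCD23lo (1.54%) and 13 the slope (8.16%), of which 10 were negative (median slope -0.0429, 22 of 49 above 0). With the replicate block and GC content subtracted these counts were 1, 2, 4 and 10 (0.802%, 0.489%, 0.898% and 7.29% of all genes) with a median slope of -0.354, and the slopes of Bysl and Rrp9 were -0.086 and -0.678. Rescaling and quantile normalization turned the median of cMyc+lateCD23int against cMyc+lateCD23lo from -0.0021 to 0.0442 and 0.0447. The cause of these differences was not tested. Reads recovered per library (15 libraries) were 19812080 to 25795815, the lowest member value was 51.7 normalized counts, and each group held 4 libraries. What limited the calls was not tested.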

Other observations

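The proteins that the biogenesis factors assemble into ribosomes were encoded by transcripts whose mean log2 level was also highest in cMyc+prePB. The order of the remaining subpopulations was another one. With the mean of the 16 libraries subtracted, this level was 0.129 in cMyc+prePB, 0.0579 in cMyc+lateCD23lo, -0.0267 in cMyc+lateCD23int and -0.16 in cMyc+early. For 87 cytosolic ribosomal protein genes the median log2 fold change of cMyc+prePB was 0.29 against cMyc+early, with 84 of 87 higher, and 0.0551 against cMyc+lateCD23lo, with 63 higher, while for cMyc+early against cMyc+lateCD23lo it was -0.21, with 5 of 87 higher. After rescaling to equal totals these medians were 0.32, 0.136 and -0.16. For 77 mitochondrial ribosomal protein genes the corresponding medians were 0.13, -0.0075 and -0.15, of which the second was 0.0734 after rescaling. None of either group passed an adjusted p of 0.05 in limma's F test, where 1 of 87 and 4 of 77 had an unadjusted p under 0.05. On Myc within subpopulations, 38 of the 87 cytosolic genes had a called negative slope and 0 a called positive one, beside 18 and 4 of the 77 mitochondrial genes. Of all genes 8.37% had a called negative and 8.52% a called positive slope. These slopes are from the deposited scaling and all 16 libraries. Calls for the 49 biogenesis genes changed with scaling, with GC content subtracted and without the libraries numbered 1. Over the 16 libraries the mean log2 level of the cytosolic ribosomal protein genes had a Pearson correlation of -0.0274 and a Spearman correlation of 0.0118 with the score of the 49 biogenesis genes.

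Among genes linked to MYC, Mxd3, which encodes a dimerization partner of MAX, was lowest in cMyc+prePB (587 ± 247) and highest in cMyc+lateCD23lo (1142 ± 136, SD, n = 4, adjusted p over the 4 groups = 0.25), and Tfap4, which encodes AP4, a transcription factor induced by MYC, ran from 178 ± 128 to 45.4 ± 10.5 (adjusted p = 0.803). The other MAX partners listed differed in direction between the same groups. Mxi1 ran from 43.6 ± 37.3 to 16.2 ± 23.2 and Mxd4 from 128 ± 60.5 to 123 ± 49.7. Mxd1 ran from 38.1 ± 24.3 to 90.6 ± 84.8 and Mnt from 33.5 ± 13.8 to 53.8 ± 25.9. Max itself ran from 933 ± 619 to 484 ± 286, and none of these genes passed the test.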
